A study of Mus musculus with 15 samples.

Results

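The 9 genes described here encode cell surface proteins by which plasma cells are recognised or through which they receive signals: Sdc1, Cd93 and Cd9 (adhesion and matrix contact), Slamf7, Cd28 and Tigit (immune receptors), Prlr (a cytokine receptor), Cd38 (an ectoenzyme) and Ly6c2 (a lipid-anchored protein). They were chosen by name as markers of plasma cells, and each symbol matched 1 of the 51912 Ensembl gene identifiers in the deposited table. All 9 were among the 15692 genes that passed the count filter.

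Wild-type mouse B cells were cultured on 40LB feeders, a fibroblast-derived line engineered to supply CD40 ligand and BAFF to B cells, with IL-4 at 100 ng/ml. The D6 group is the unsorted bulk culture after 6 days, so it can hold feeder cells and B cells of every stage and isotype. For the other 4 groups the cells were taken off the feeders, kept 2 further days in medium without stimulation, and flow sorted at day 8 as IgE iGC, IgE PC, IgG1 iGC or IgG1 PC, where PC is plasma cell and iGC is the label of the cells that had not become plasma cells. Each group had 3 libraries, described in the series text as independent biological replicates. No group received any other treatment, and sex, age and strain are not given in the sources used here. The sources used here do not say which antibodies defined the sort gates; where CD138, the protein of Sdc1, was part of the PC gate, the Sdc1 step from iGC to PC follows from the sort and is a description only.

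A plasma cell is the antibody-secreting end stage of the B cell lineage. As a B cell becomes one, PRDM1, IRF4 and XBP1 take over its transcription, surface molecules of the B cell such as MHC class II decline, and receptors for survival signals and for niche contact appear. The surface set matters in practice because it is used to sort plasma cells and because antibodies against several of its members are used against myeloma.

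Library totals were 17.7 to 54.1 M expected counts, and log2 levels of replicates correlated at r of 0.978 to 0.993 across genes. The plasma cell label was checked on 8 intracellular markers (Prdm1, Irf4, Xbp1, Jchain, Mzb1, Bhlha15, Ell2 and Tent5c): their summed level (CPM, counts scaled to a common library total) ran from 20343 to 22830 CPM in IgE PC, from 11805 to 17343 CPM in IgG1 PC, and in the other groups from 774 to 1355 CPM; 8 of 8 rose from iGC to PC in both isotypes. Of 15 B cell surface markers, 13 fell and 2 rose in the IgE step, and 11 fell and 1 rose in the IgG1 step. Over all genes tested 30.5% rose and 33.6% fell in the IgE step, and 30.1% and 29% in the IgG1 step. Markers of fibroblasts, the lineage of the feeder line, were also present: 10 genes summed to 256 to 389 CPM in D6, to 24.5 to 38.6 CPM in IgE PC and to 40.5 to 79.3 CPM over both iGC groups. In IgG1 PC they stood at 199, 76.0 and 200 CPM in replicates 1 to 3, so 2 of its libraries lay apart in the sum. Cd40lg, which the feeders carry, was at 0.700, 0.483 and 1.123 CPM in IgG1 PC replicates 1 to 3. It was at 0.105 to 0.442 CPM in IgE PC and at 13.9 to 23.5 CPM in D6. Postn was at 0 in every group but IgG1 PC. The source of these transcripts was not tested. T cell markers summed to 2.15 to 6.68 CPM in any library, with Cd3e at 0 in every group but IgG1 PC.

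On GRCm38, in the GENCODE annotation, the members are protein-coding genes at these positions. Sdc1 lies at chr12:8771323-8793715 (plus strand), Cd93 at chr2:148436640-148443563 (minus) and Cd9 at chr6:125460266-125494791 (minus). Slamf7 lies at chr1:171632403-171653035 (minus), Cd28 at chr1:60716800-60773359 (plus) and Tigit at chr16:43648867-43664146 (minus). Prlr spans chr15:10177238-10349180 (plus), Cd38 chr5:43868553-43912375 (plus) and Ly6c2 chr15:75108158-75111970 (minus).

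RefSeq promoter windows on GRCm38.p6 (250 bases before to 50 after an annotated start) were matched for 7 members, in 10 windows. Those of 4 members are printed 5′ to 3′ on the gene's strand: Sdc1, Tigit, Cd38 and the second of 3 Prlr windows. Sdc1 and Tigit were picked because their levels moved together most closely, and Cd38 because it fell from iGC to PC. Prlr was picked because its step from iGC to PC differed most between the isotypes. The Prlr window was picked from its 3 after its motifs were seen, and the data do not tell which Prlr start was used. Capitals mark CAGNTG, the E-box bound by E proteins such as E2A, and in Prlr also GACGTG, the core of the element bound by XBP1, and TTCNNNGAA, the element bound by STAT5 and STAT6.
Sdc1, chr12:8771146-8771445, plus strand: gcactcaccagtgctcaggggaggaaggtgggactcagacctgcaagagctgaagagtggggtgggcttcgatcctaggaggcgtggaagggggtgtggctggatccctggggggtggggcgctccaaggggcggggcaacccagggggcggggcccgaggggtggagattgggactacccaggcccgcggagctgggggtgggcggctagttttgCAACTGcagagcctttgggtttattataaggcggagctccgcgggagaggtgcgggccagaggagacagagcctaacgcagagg
Tigit, chr16:43664135-43664434, minus strand: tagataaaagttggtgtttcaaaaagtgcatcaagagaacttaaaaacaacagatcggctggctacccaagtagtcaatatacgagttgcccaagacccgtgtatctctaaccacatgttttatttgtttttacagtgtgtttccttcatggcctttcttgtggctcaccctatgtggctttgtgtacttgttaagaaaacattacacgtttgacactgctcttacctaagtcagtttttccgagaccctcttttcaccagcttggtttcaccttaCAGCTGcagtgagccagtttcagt
Cd38, chr5:43868559-43868858, plus strand: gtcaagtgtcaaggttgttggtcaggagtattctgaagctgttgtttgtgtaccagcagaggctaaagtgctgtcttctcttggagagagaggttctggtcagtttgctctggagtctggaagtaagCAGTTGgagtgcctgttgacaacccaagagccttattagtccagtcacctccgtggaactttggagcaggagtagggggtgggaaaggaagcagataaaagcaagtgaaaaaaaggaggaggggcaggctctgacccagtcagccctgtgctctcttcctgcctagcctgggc
Prlr, second window, chr15:10223656-10223955, plus strand: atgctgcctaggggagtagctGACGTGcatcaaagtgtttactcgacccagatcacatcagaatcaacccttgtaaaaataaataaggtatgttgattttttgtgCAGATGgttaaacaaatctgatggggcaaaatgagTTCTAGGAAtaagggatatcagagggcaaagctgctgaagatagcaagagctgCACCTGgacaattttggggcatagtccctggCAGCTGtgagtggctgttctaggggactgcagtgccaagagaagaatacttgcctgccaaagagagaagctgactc

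Motifs were searched on both strands. CAGNTG stood in a window of 7 of 7 members and in 9 of their 10 windows, but also in 51.4% of all 32851 windows of this length. Its palindromic form CAGCTG, which is counted within CAGNTG, stood in a window of 5 of 7 members (Slamf7, Cd9, Prlr, Ly6c2 and Tigit) and in 16.3% of all windows. GACGTG was in a window of 1 of 7 members, Prlr, and in 6.38% of all windows, and TTCNNNGAA likewise in 1 of 7, Prlr, and in 8.3% of all windows. GNGAAAGT, the core bound by PRDM1, was in a window of 0 of 7 members (4.21% of all windows). The IRF-ETS composite element (2.72% of all windows) and the interferon response element (3.44%) were in windows of 0 of 7 members as well. Member counts take a match in any window of a gene, and Prlr has 3 windows and Ly6c2 has 2. The 2 Ly6c2 windows overlap and hold the same CAGNTG sites, so the count of 9 of 10 windows takes these sites in both. The shares of all windows are per window, so they differ in unit from the member counts. A match describes letters in a window and not binding.

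Sdc1 encodes syndecan-1 (CD138), a heparan sulfate proteoglycan that binds growth factors and matrix and is the most widely used plasma cell marker. Its level in replicates 1, 2 and 3 was 311, 317 and 350 CPM in IgE PC, against 207, 148 and 155 CPM in IgG1 PC. It was 2.25, 2.30 and 1.96 CPM in IgE iGC and 0.956, 1.74 and 1.54 CPM in IgG1 iGC. D6 lay between the stages at 9.46, 12.1 and 12.2 CPM. No library of one stage reached another stage's range. The log2 fold change from iGC to PC was 7.21 ± 0.18 (SE) in IgE, 148-fold, and 6.92 ± 0.19 in IgG1, 121-fold, which rank 11 and 28 among all genes tested. It is given without a test because the gates are not known. Sdc1 in IgE PC was 1.92-fold that in IgG1 PC (log2 fold change 0.94 ± 0.13, edgeR quasi-likelihood test, adjusted p = 1.83e-05). Between the iGC groups the values did not overlap, yet the difference of 0.66 ± 0.24 did not pass (edgeR adjusted p = 0.193), though it did with DESeq2 (0.65, adjusted p = 0.03).

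In bulk RNA, fewer cells of a type and less RNA per cell cannot be told apart, so the intermediate D6 level gives no share of plasma cells.

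Cd93 encodes a C-type lectin-like transmembrane protein (a group 14 relative of thrombomodulin) found on early B cells and again on plasma cells, where it is known to help their persistence in the bone marrow. Cd93 stood at 948, 916 and 986 CPM in IgE PC, against 474, 496 and 452 CPM in IgG1 PC. IgE iGC had 101, 100 and 106 CPM, IgG1 iGC 63.1, 57.5 and 62.3 CPM, and D6 30.7, 33.2 and 27.4 CPM. The 5 groups were fully separated, with D6 lowest, and each neighbour in the order differed (highest edgeR adjusted p = 1.64e-05). From iGC to PC the level rose 9.27-fold in IgE (log2 fold change 3.21 ± 0.07, edgeR adjusted p = 2.06e-14) and 7.78-fold in IgG1 (2.96 ± 0.07, 9.01e-14). IgE cells were higher than IgG1 cells at both stages, by 1.00 ± 0.07 on the log2 scale in PC and 0.75 ± 0.07 in iGC (edgeR adjusted p = 1.03e-08 and 1.64e-05). The difference between the steps, 0.25 ± 0.10, was called narrowly (edgeR adjusted p = 0.0435) and missed the threshold under several alternatives, among them total-count scaling (0.02, adjusted p = 0.919). Of its family, Thbd, thrombomodulin, was the 1 of 4 listed genes that could be tested, and it rose by 2.25 ± 0.39 and 3.30 ± 0.41 on the log2 scale in the IgE and IgG1 steps (edgeR adjusted p = 0.000172 and 1.08e-05).

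Cd9 encodes a tetraspanin, a membrane organiser that binds integrins and marks plasma cells as well as some B cell subsets, and is also made by fibroblasts. D6 had 12.6, 15.6 and 18.1 CPM and IgG1 PC 18.4, 13.2 and 15.4 CPM. IgE PC had 8.71, 9.22 and 7.43 CPM, IgE iGC 1.80, 2.44 and 1.76 CPM, and IgG1 iGC 2.60, 2.84 and 1.94 CPM. D6 and IgG1 PC overlapped, and IgE PC lay below both and above the iGC groups. Cd9 rose 4.19-fold from iGC to PC in IgE (log2 fold change 2.07 ± 0.19, edgeR adjusted p = 1.32e-07) and 6.31-fold in IgG1 (2.66 ± 0.18, 8.84e-09). In IgE PC it was 1.84-fold lower than in IgG1 PC (log2 fold change -0.88 ± 0.16, edgeR adjusted p = 0.000304).

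The fibroblast markers moved in the same direction as Cd9 between PC groups: 8 of 9 tested were lower in IgE PC than in IgG1 PC. In the IgG1 step 6 of 9 rose, and in the IgE step 0 rose and 1 fell. Under total-count scaling 6 rose in the IgG1 step, and 0 rose and 8 fell in the IgE step. The median log2 change of all genes in the IgE step was then -0.55. Of all genes tested, 30.7% were lower in IgE PC than in IgG1 PC. In the IgG1 step 30.1% of them rose, and in the IgE step 30.5% rose and 33.6% fell. Without IgG1 PC replicates 1 and 3, a setting chosen after the data were seen that leaves 1 library in that group, the Cd9 difference between the PC groups was -0.63 and that in the IgG1 step 2.41 on the log2 scale, given without a test. The part of feeder RNA in the Cd9 values was not tested.

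**Figure D1:**
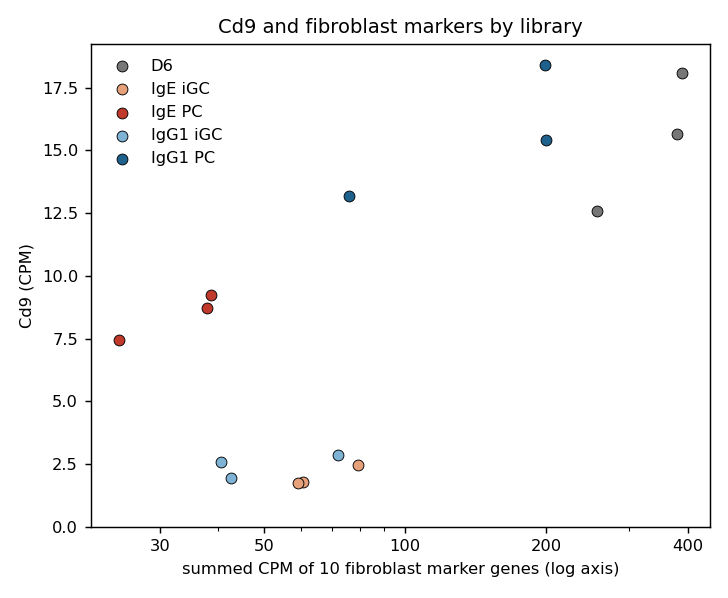
Cd9 level in CPM (vertical axis) against the summed CPM of 10 fibroblast marker genes (horizontal log axis), 1 point per library, coloured by group. The IgE PC libraries have marker sums of 24.5 to 38.6 CPM and Cd9 at 7.43 to 9.22 CPM. In the iGC libraries the sums are 40.5 to 79.3 CPM and Cd9 is at most 2.84 CPM. IgG1 PC has sums of 76.0 to 200 CPM with Cd9 at 13.2 to 18.4 CPM, and D6 256 to 389 CPM with 12.6 to 18.1 CPM.

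**Figure D2:**
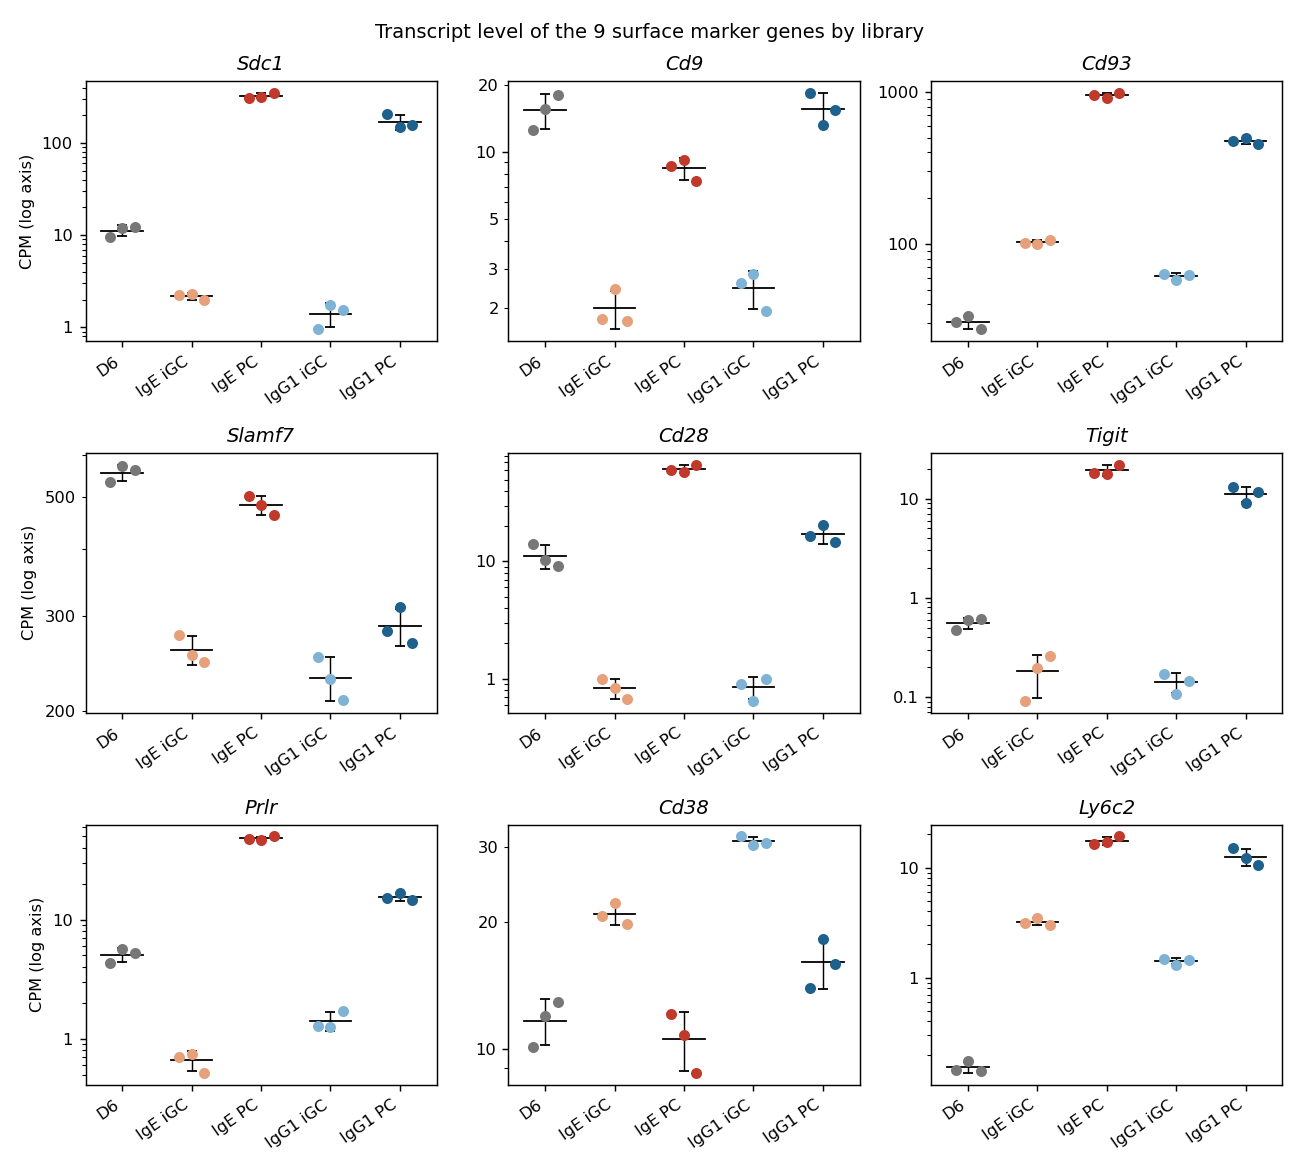
Level of each of the 9 genes in CPM (vertical log axis, a separate range for each panel) in the 15 libraries; points are libraries, horizontal lines group means and bars 1 SD (n = 3). Cd38 is the panel in which both PC groups lie below both iGC groups, and Cd9, Slamf7 and Cd38 are those in which D6 overlaps or exceeds a PC group.

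The genes around these adhesion proteins were taken from lists. Of 16 genes tested among the other syndecans and the enzymes of heparan sulfate synthesis, 10 were higher and 4 lower in IgE PC than in IgE iGC, and 7 and 2 in the IgG1 step. Over all genes 30.5% were higher and 33.6% lower in the IgE step, and 30.1% and 29% in the IgG1 step, which is the background for this and the later lists. The counts for this list turned to 5 higher and 9 lower, and 5 and 7, when libraries were scaled by total count in place of TMM. Ext1, which encodes a heparan sulfate polymerase, rose by 2.21 ± 0.12 and 1.46 ± 0.12 on the log2 scale (edgeR adjusted p = 2.93e-10 and 7.91e-08). Glce, the epimerase that modifies the chain, rose by 1.83 ± 0.09 in IgE and was 1.26 ± 0.08 higher in IgE PC than in IgG1 PC (edgeR adjusted p = 3.23e-11 and 8.48e-09). Both kept their direction and call under total-count scaling.

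Of 19 tetraspanins and partners, 7 were higher and 8 lower in the IgE step and 12 and 4 in the IgG1 step, or 3 and 13, and 7 and 6, under total-count scaling. Of all genes, 30.5% and 33.6% were higher and lower in the IgE step. Cd81, part of the B cell coreceptor, rose by 1.28 ± 0.09 and 0.89 ± 0.09 (edgeR adjusted p = 4.20e-09 and 6.36e-07). Tspan2 fell by 2.87 and 1.92 on the log2 scale (4.50e-11 and 4.90e-09). Cd63, a tetraspanin of late endosomes that fibroblasts also make, rose by 1.88 ± 0.29 in the IgG1 step and was lower in IgE PC than in IgG1 PC by 2.74 on the log2 scale (edgeR adjusted p = 9.29e-05 and 6.52e-06), in the direction of the fibroblast markers; their part in these values was not tested.

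Slamf7 (CRACC, CS1) is a self-binding receptor of the SLAM family on plasma cells and natural killer cells and the target of the myeloma antibody elotuzumab. It was abundant in every group, and highest at day 6. D6 had 534, 570 and 562 CPM and IgE PC 503, 482 and 464 CPM. IgG1 PC had 281, 312 and 268 CPM, IgE iGC 277, 254 and 247 CPM, and IgG1 iGC 252, 229 and 209 CPM. In CPM, IgE PC lay nearer to D6 than to IgG1 PC, whose range overlapped that of IgE iGC. In TPM it lay nearer to IgG1 PC, with means of 345 TPM in D6, 186 in IgE PC and 122 in IgG1 PC. The IgE step was 1.86-fold (log2 fold change 0.90 ± 0.08, edgeR adjusted p = 3.69e-08), and IgE PC was 1.68-fold above IgG1 PC (0.75 ± 0.08, 6.89e-07). The IgG1 step of 0.32 ± 0.08 was called (edgeR adjusted p = 0.00193), but not on total-count scaling (0.09, 0.362) or on log2(TPM + 1), where it was -0.07 (limma adjusted p = 0.461). The step was larger in IgE than in IgG1 by 0.58 ± 0.11 (edgeR adjusted p = 0.000513).

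Of 8 SLAM family members and adaptors tested besides Slamf7, 3 rose and 4 fell in each isotype's step, or 2 and 5 in each under total-count scaling. Slamf1, a self-binding receptor that B cells use for costimulation, fell by 1.34 and 1.10 on the log2 scale in IgE and IgG1 (edgeR adjusted p = 8.24e-10 and 1.86e-08). Sh2d1b1, which encodes the EAT-2 adaptor through which SLAMF7 signals in natural killer cells, rose by 1.09 ± 0.16 and 1.74 ± 0.15 (1.68e-05 and 1.65e-07), from 2.78 to 3.17 CPM on average in iGC to 6.74 CPM in IgE PC, against 9.28 CPM in IgG1 PC.

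Cd28 encodes the costimulatory receptor for CD80 and CD86, best known on T cells and also a survival receptor of plasma cells. IgE PC had 59.7, 57.9 and 67.0 CPM, and IgG1 PC 16.3, 20.3 and 14.6 CPM. Both iGC groups had 1.00 CPM or less in every library, and D6 had 14.0, 10.3 and 9.13 CPM. IgE PC stood above every other library by a wide margin. The IgE step was 70.6-fold (log2 fold change 6.14 ± 0.21, edgeR adjusted p = 1.25e-12) and the IgG1 step 20.2-fold (4.33 ± 0.21, 1.3e-10). IgE PC exceeded IgG1 PC 3.60-fold (1.85 ± 0.15, edgeR adjusted p = 7.48e-08), and the steps differed by 1.81 ± 0.33 (0.000509). No difference between the iGC groups passed (0.04 ± 0.29, edgeR adjusted p = 0.98, 95% interval -0.54 to 0.62).

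Tigit encodes an inhibitory receptor of T and natural killer cells that competes with CD226 for CD155 (Pvr) and the nectins. IgE PC had 18.2, 17.6 and 22.0 CPM, and IgG1 PC 13.0, 9.07 and 11.5 CPM. The iGC groups rested on 4 to 7 counts per library, 0.0910 to 0.258 CPM, and D6 on 21 to 25 counts, 0.477 to 0.609 CPM. Tigit was thus barely counted outside the PC groups and rose 116-fold in IgE (log2 fold change 6.86 ± 0.24, edgeR adjusted p = 1.37e-12) and 76.9-fold in IgG1 (6.26 ± 0.24, 8.89e-12), folds whose size rests on those few counts. IgE PC exceeded IgG1 PC 1.72-fold (0.78 ± 0.15, edgeR adjusted p = 0.000331). The steps were not shown to differ (0.59 ± 0.48, adjusted p = 0.346).

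Cd28 and Tigit are T cell genes by reputation. In IgE PC the 10 T cell markers summed to 2.15 to 2.73 CPM, with Cd3e and Themis at 0, and Cd28 was at 57.9 to 67.0 CPM. In IgG1 PC they summed to 3.05 to 4.21 CPM, with Cd8a and Themis at 0, and Cd28 was at 14.6 to 20.3 CPM. Of 3 T cell markers tested, 1 rose and 1 fell in the IgE step, and 2 rose and 1 fell in the IgG1 step. Under total-count scaling the counts were 0 and 1, and 1 and 1. A T cell source of the Cd28 and Tigit transcripts was not tested.

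Of 8 genes tested among the ligands and relatives of CD28 and TIGIT, 5 fell and 1 rose in the IgE step, 4 fell and 3 rose in the IgG1 step, and 7 were lower in IgE PC than in IgG1 PC (7 and 1, 4 and 2, and 8 under total-count scaling). Of all genes tested, 30.7% were lower in IgE PC than in IgG1 PC, or 7265 of 15692 under total-count scaling. Cd86, a CD28 ligand, fell in IgE from 68.1 ± 5.65 to 19.0 ± 1.35 CPM (SD, n = 3), and in IgG1 from 80.6 ± 5.41 to 29.4 ± 6.72 CPM (edgeR adjusted p = 1.14e-08 and 2.78e-07). Icosl, the ligand of the related receptor ICOS, was at 74.3, 75.0 and 82.5 CPM in IgE iGC and 3.05, 3.57 and 3.00 CPM in IgE PC. In IgG1 PC it was at 14.0, 18.7 and 19.6 CPM, above every IgE PC library (edgeR log2 difference -2.45 ± 0.12, adjusted p = 6.40e-10). Ctla4, the inhibitory receptor that shares the ligands of CD28, ran the other way from Cd28 between the isotypes, with 9.69, 9.03 and 9.13 CPM in IgG1 PC and 1.16, 1.61 and 1.74 CPM in IgE PC. No iGC or D6 library exceeded 0.261 CPM of Ctla4, and the difference between the PC groups was -2.63 ± 0.27 on the log2 scale (edgeR adjusted p = 8.16e-07). Pvr, the main TIGIT ligand, was listed at 7.96 ± 0.55 CPM in IgE PC, and at 10.02 ± 0.72 CPM in IgG1 PC (-0.33 ± 0.10, adjusted p = 0.0117).

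**Figure D3:**
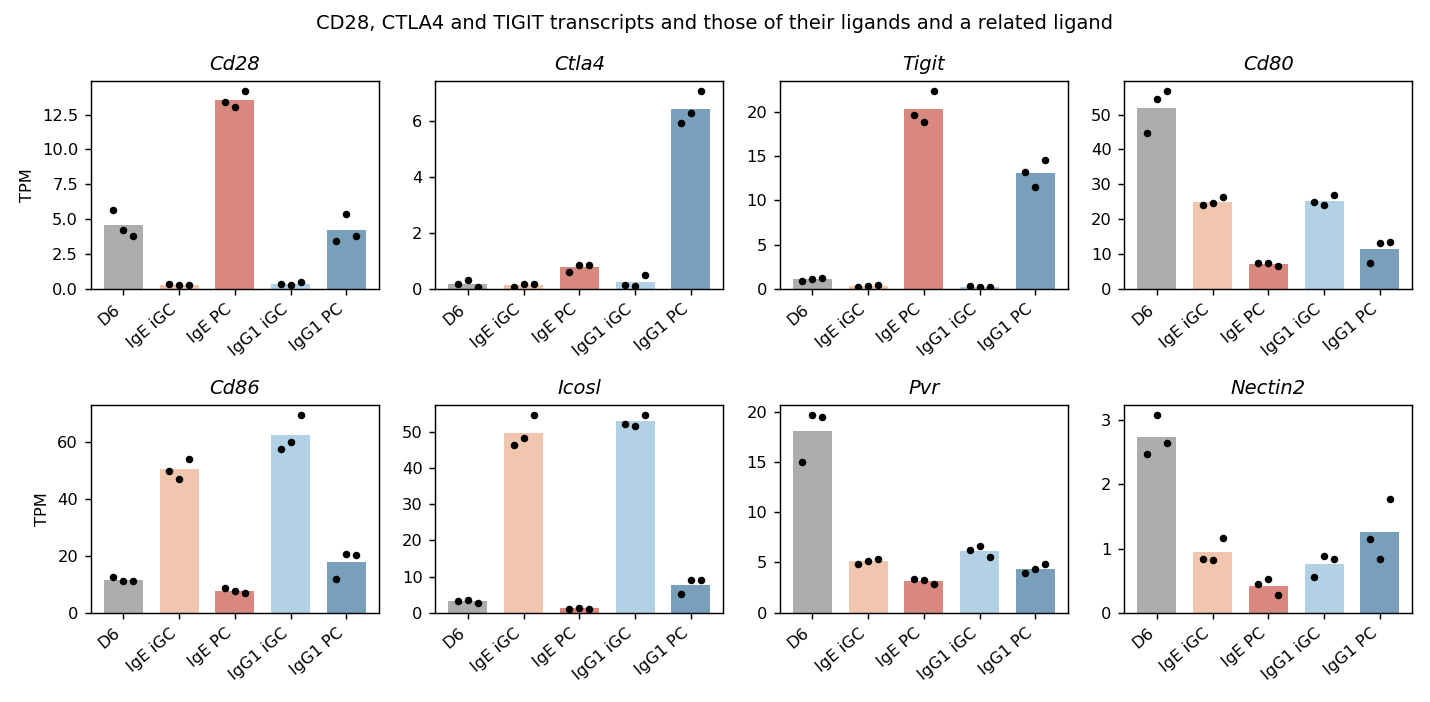
TPM (a scale per transcript length, linear axes from 0) of Cd28, Ctla4, Tigit, the CD28 and CTLA4 ligands Cd80 and Cd86, the related ligand Icosl and the TIGIT ligands Pvr and Nectin2; bars are group means and points the 3 libraries. Cd28 is highest in IgE PC and Ctla4 in IgG1 PC, while Cd86 and Icosl are highest in the iGC groups.

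Prlr encodes the prolactin receptor, a class I cytokine receptor that signals through JAK2 and STAT5. IgE PC had 47.2, 46.8 and 49.8 CPM, and IgG1 PC 15.2, 16.7 and 14.5 CPM. D6 had 4.29, 5.64 and 5.23 CPM, IgG1 iGC 1.28, 1.26 and 1.71 CPM, and IgE iGC 0.705, 0.750 and 0.517 CPM. No groups overlapped, and the isotypes changed rank: IgE was the lower isotype in iGC and the higher in PC. The log2 differences were -1.04 ± 0.19 in iGC (edgeR adjusted p = 0.00362) and 1.63 ± 0.10 in PC (5.07e-09). The iGC values rest on 10 to 59 counts per library, and on log2(TPM + 1) that difference did not pass (-0.25, limma adjusted p = 0.665). The step to PC was 70.1-fold in IgE (6.13 ± 0.15, edgeR adjusted p = 3.02e-14) and 11-fold in IgG1 (3.46 ± 0.13, 5.43e-12). The difference between the steps, 2.68 ± 0.21 on the log2 scale (edgeR adjusted p = 2.40e-07), was the largest of the 9.

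Of 12 genes tested in prolactin receptor signalling, 5 rose and 3 fell in the IgE step and 4 rose and 4 fell in the IgG1 step, or 2 and 7, and 4 and 8, under total-count scaling. Cish, a feedback inhibitor and common STAT5 target, rose by 2.03 ± 0.13 and 1.29 ± 0.12 (edgeR adjusted p = 1.03e-09 and 3.79e-07). Socs3, a feedback inhibitor of JAK kinases, rose by 1.38 ± 0.14 and 1.21 ± 0.14 (4.19e-07 and 2.17e-06). Jak2 was 0.61 ± 0.06 higher and Stat5a 0.79 lower on the log2 scale in IgE PC than in IgG1 PC (edgeR adjusted p = 1.26e-06 and 2.22e-07). These 4 kept their direction and call under total-count scaling in the comparisons named. Many cytokine receptors use these proteins, so their levels are not specific to prolactin.

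Cd38 encodes an ectoenzyme that breaks down NAD and makes cyclic ADP-ribose, a calcium-mobilising messenger. In humans it is a plasma cell antigen, whereas in mice it is high on naive and memory B cells and low on germinal centre B cells. It was the 1 member of the 9 that was lower in both PC groups than in the iGC groups. IgG1 iGC had 31.8, 30.3 and 30.7 CPM and IgE iGC 20.6, 22.2 and 19.7 CPM. IgG1 PC had 14.0, 18.2 and 15.9 CPM, IgE PC 12.1, 10.8 and 8.78 CPM, and D6 10.1, 11.9 and 12.9 CPM. The iGC groups lay above all other libraries, and IgE PC overlapped D6. Cd38 fell 1.97-fold in IgE (log2 fold change -0.98 ± 0.12, edgeR adjusted p = 2.81e-06) and 1.92-fold in IgG1 (-0.94 ± 0.11, 4.78e-06). It was lower in IgE than in IgG1 at both stages, by -0.60 ± 0.12 in PC (edgeR adjusted p = 0.0005) and -0.57 ± 0.11 in iGC (0.00949). The call in iGC was lost without IgE iGC replicate 1 (-0.56, edgeR adjusted p = 0.0518).

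Of its partners, Pecam1 (CD31), a CD38 counter-receptor, fell with it, by 0.87 and 0.97 on the log2 scale (edgeR adjusted p = 8.03e-09 and 5.44e-09). Entpd1 (CD39), which removes phosphates from extracellular ATP, rose in IgE from 17.1 ± 0.612 to 116 ± 2.23 CPM, and in IgG1 from 16.0 ± 0.679 to 92.0 ± 13.1 CPM (SD, n = 3; edgeR adjusted p = 3.33e-13 and 1.54e-12). Of the 3 partners and ectoenzymes tested, 2 rose and 1 fell in the IgE step, and 1 and 1 in the IgG1 step (1 and 1, and 1 and 2, under total-count scaling).

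Ly6c2 encodes a form of Ly6C, a lipid-anchored protein of monocytes, memory T cells and plasma cells. IgE PC had 16.3, 17.0 and 19.2 CPM, and IgG1 PC 14.9, 12.2 and 10.6 CPM. IgE iGC had 3.14, 3.52 and 3.04 CPM, IgG1 iGC 1.47, 1.3 and 1.46 CPM, and D6 0.144, 0.174 and 0.143 CPM. The groups were fully separated in the same order as for Cd93. Ly6c2 rose 5.37-fold in IgE (log2 fold change 2.42 ± 0.13, edgeR adjusted p = 1.16e-10) and 8.86-fold in IgG1 (3.15 ± 0.14, 3.20e-11). IgE cells already led in iGC, by 1.20 ± 0.14 on the log2 scale (edgeR adjusted p = 0.000158), and by 0.48 ± 0.11 in PC (0.00218). The step was therefore smaller in IgE, by 0.72 on the log2 scale (edgeR adjusted p = 0.00528). Under total-count scaling the PC difference was 0.23 (adjusted p = 0.0605).

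Ly6c2 shares reads with its near-copy Ly6c1: 9.32% of its 76-base windows also occur there, and its expected counts were fractional in all 15 libraries, so its values are less certain than those of the others. Of the counts of both genes, Ly6c2 took 89.5% to 99.8% in the day 8 libraries and 13.5% to 19.5% in D6, where it had 5.64 to 7.35 counts against 30.3 to 37.2 for Ly6c1. Myeloid cells also express Ly6C, and myeloid markers summed to 10.2 to 27.2 CPM over all libraries. Of 6 other Ly6 genes tested, 2 rose and 2 fell in the IgE step and 1 and 1 in the IgG1 step (1 and 2 in each under total-count scaling). Ly6d, a marker of the early B lineage, fell by 0.86 and 0.31 on the log2 scale (edgeR adjusted p = 1.99e-08 and 0.00122).

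Across the set, 8 of 9 genes rose and 1 fell from iGC to PC in each isotype. Of all genes tested, 64.1% were called in the IgE step (30.5% higher, 33.6% lower) and 59.1% in the IgG1 step (30.1% higher, 29% lower). Total-count scaling moved the median of all genes from -0.08 to -0.55 and from 0.01 to -0.22 on the log2 scale and the genes called from 4788 higher and 5270 lower to 2651 and 8743 in IgE, and from 4720 and 4553 to 3226 and 6840 in IgG1; 9 and 8 of the 9 genes were then called, Slamf7 in IgG1 being lost. The median log2 fold change of the 9 was 3.21 in IgE and 3.15 in IgG1, against -0.08 and 0.01 over all genes. All 9 had PC and iGC values that did not overlap, as did 71.3% of all genes in IgE and 61.2% in IgG1. Since the genes were picked as plasma cell markers, their rise is a description of the set. Sdc1 is counted here, and its step follows from the sort where CD138 was in the PC gate.

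**Figure D4:**
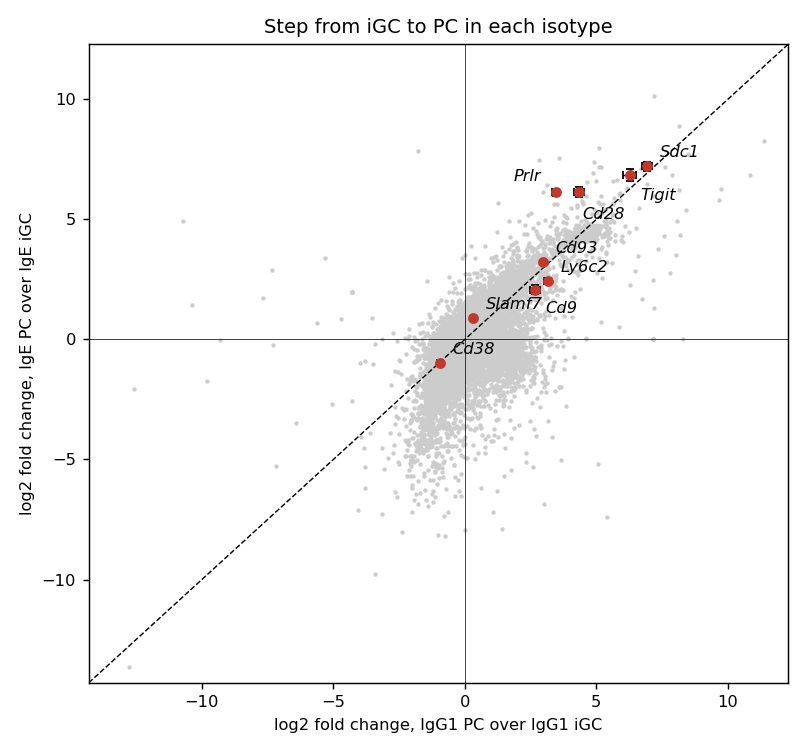
Log2 fold change from iGC to PC in IgG1 (horizontal) and in IgE (vertical) for all genes tested (grey) and the 9 genes (red, with standard errors); the dashed line marks equal change. Prlr and Cd28 lie farthest above the line (6.13 against 3.46, and 6.14 against 4.33) and Ly6c2 and Cd9 below it.

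Between the PC groups, 7 of 9 were higher in IgE (Sdc1, Cd93, Slamf7, Cd28, Tigit, Prlr and Ly6c2) and 2 lower (Cd9 and Cd38). In this comparison 58.1% of all genes were called, 27.4% higher and 30.7% lower, and the medians were 0.78 for the 9 and -0.05 for all genes. All 9 also had values that did not overlap, as did 59.2% of all genes. Under total-count scaling 8 of 9 were called, all but Ly6c2, and all genes split into 2272 higher and 7265 lower, from 4303 and 4816. The intracellular plasma cell markers were not the same in both groups, with 5 of 8 higher and 1 lower in IgE PC (4 and 2 under total-count scaling); their part in the surface differences was not tested.

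Between the iGC groups 4 of 9 were called, Cd93 and Ly6c2 higher and Prlr and Cd38 lower in IgE, where 3.87% of all genes were called (1.99% higher and 1.88% lower). Values of 5 of the 9 did not overlap, as for 27.5% of all genes. The count of called genes in this comparison is the least stable, since 607 became 323 without IgG1 iGC replicate 3 and 1219 without IgG1 PC replicate 1.

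**Figure D5:**
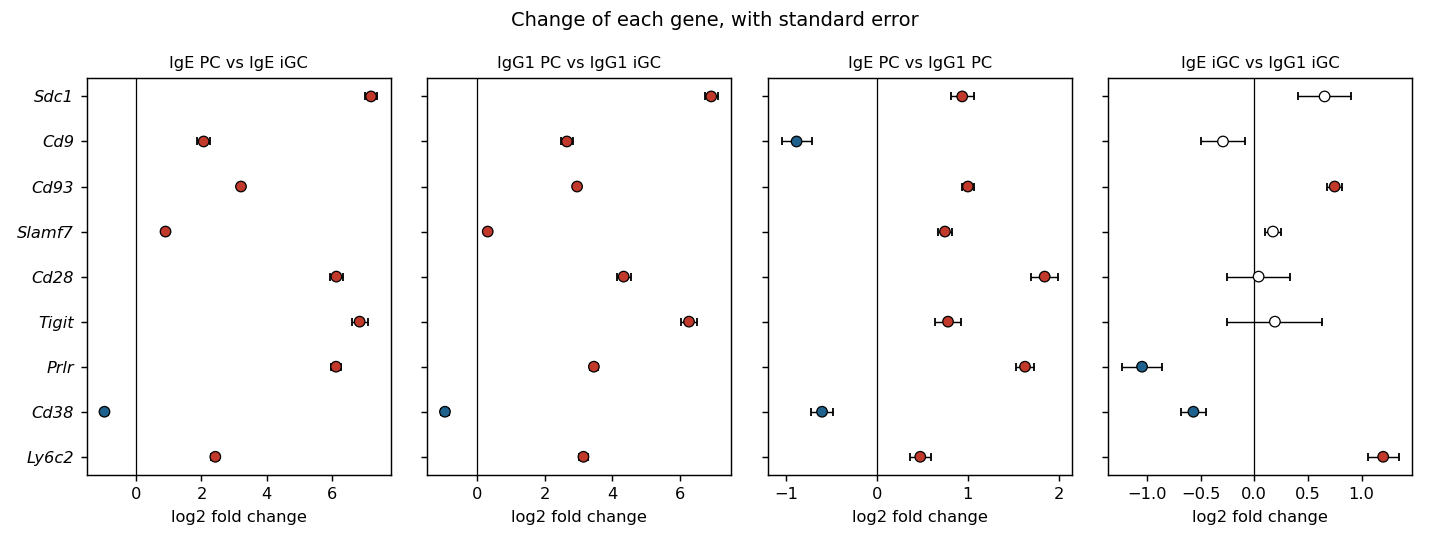
Log2 fold change with its standard error for each of the 9 genes in 4 comparisons (horizontal axes differ between panels); red points were called higher, blue lower, and open points were not called. In IgE iGC against IgG1 iGC 5 points are open, and in the other panels none. The Sdc1 points in the panels of PC against iGC are a description, since the sort gates are not known.

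For 5 of 9 genes the isotypes differed in how far the level moved between iGC and PC, larger in IgE for Prlr, Cd28, Slamf7 and Cd93 and smaller for Ly6c2, where 42.9% of all genes differed (19.8% and 23.1%). The differences for Sdc1 (0.28 ± 0.28, 95% interval -0.26 to 0.83), Tigit (interval -0.35 to 1.53), Cd38 (-0.36 to 0.29) and Cd9 (-1.11 to -0.07) did not pass after adjustment (edgeR adjusted p = 0.442, 0.346, 0.886 and 0.0859). For Sdc1 the difference is made of steps that follow from the sort where CD138 was in the PC gate. The Cd93 difference lost its call under total-count scaling (0.02, edgeR adjusted p = 0.919). The Cd9 difference did pass under total-count scaling (-0.82, adjusted p = 0.0199), on log2(TPM + 1) (-0.71, limma, 0.0246) and without IgG1 PC replicate 2 (-0.70, 0.0374), and that of Tigit on log2(TPM + 1) (0.52, limma, 0.0272).

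Each day 8 group was also set against D6, in 4 comparisons that share the D6 libraries. In both iGC groups 6 of 9 were lower than D6 (Sdc1, Cd9, Slamf7, Cd28, Tigit and Prlr) and 3 higher (Cd93, Ly6c2 and Cd38), where 69.1% of all genes were called for IgE (32.8% higher, 36.3% lower) and 68.4% for IgG1 (32.4% and 36%). Against D6, IgE PC had 6 higher and 2 lower (Cd9 and Slamf7), and IgG1 PC 7 higher and 1 lower (Slamf7), with 76.4% (36.9% and 39.5%) and 71.9% (35.9% and 36%) of all genes called. Values that did not overlap with D6 were found for 9 genes in IgE iGC, 9 in IgG1 iGC, 8 in IgE PC and 8 in IgG1 PC, as for 77.2%, 77.6%, 82.4% and 73.1% of all genes. Ly6c2 had the largest of these differences in IgE PC, 6.82 ± 0.18 on the log2 scale (edgeR adjusted p = 5.72e-14), followed by Tigit with 5.10 ± 0.20 (2.17e-12) and Cd93 with 4.96 ± 0.08 (6.53e-16). The size for Ly6c2 rests on 5.64 to 7.35 counts per D6 library, where most counts of the pair went to Ly6c1. Summed, Ly6c1 and Ly6c2 were at 0.892 to 1.06 CPM in D6 and 16.3 to 19.3 CPM in IgE PC. The Slamf7 difference between IgE PC and D6 was -0.20 ± 0.07 (edgeR adjusted p = 0.0234) and missed the threshold with immunoglobulin genes left out (-0.09, 0.299). Cd28 in IgG1 PC was 0.61 ± 0.15 above D6 (edgeR adjusted p = 0.00192), but 0.34 (0.0573) under total-count scaling and -0.10 (limma, 0.555) on log2(TPM + 1).

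Every neighbour in the order of the 5 groups differed for Cd93, Prlr and Ly6c2. The share of all genes with such an order was not counted, so this is a description of these genes. For Prlr the iGC groups did not differ on log2(TPM + 1) (limma adjusted p = 0.665). For Ly6c2 the PC groups did not differ under total-count scaling (edgeR adjusted p = 0.0605). For Sdc1, Cd28 and Tigit the order was IgE PC, IgG1 PC, D6 and then the iGC groups, which did not differ from each other in the test. Prlr had the same order with IgG1 iGC above IgE iGC. For Slamf7 the lower 3 groups, IgG1 PC, IgE iGC and IgG1 iGC, did not differ between neighbours (edgeR adjusted p = 0.112 and 0.282). The iGC groups were not resolved for Cd9 (edgeR adjusted p = 0.595), nor were IgG1 PC and D6 (0.02 ± 0.16, 0.932), although on log2(TPM + 1) the latter difference was -0.68 and passed (limma adjusted p = 0.000971). For Cd38 the difference between IgE PC and D6 did not pass (-0.14 ± 0.12, edgeR adjusted p = 0.306), but did under total-count scaling (-0.67, 0.000444) and on log2(TPM + 1) (-0.84, limma, 8.08e-05).

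Per length, in TPM, Slamf7, Cd93 and Sdc1 were the most abundant of the set in IgE PC, with means of 186, 135 and 118 TPM, above 96.3%, 95.1% and 94.3% of the genes tested. In IgG1 PC they stood at 122, 75.4 and 68.3 TPM. Ly6c2, Tigit and Cd28 had means of 22.9, 20.3 and 13.6 TPM in IgE PC and 17.8, 13.1 and 4.21 TPM in IgG1 PC. Prlr was at 8.32 and 3.56 TPM, and Cd9 and Cd38 were the members with more TPM in IgG1 PC (14.1 and 5.32) than in IgE PC (6.90 and 3.12).

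The genes whose log2 CPM ran closest to each member over the 15 libraries, among 8963 genes, are given as a description, since all points share the contrast of stages. Sdc1 ran with Chrnb4, Creb3l2 and Hid1 (r of 0.996, 0.996 and 0.995), and Tigit with Creb3l2, Irf4 and Sec24a (0.994, 0.993 and 0.993). Cd93 ran with Fam214a, Ccpg1 and Rhobtb1 (0.997, 0.995 and 0.993), and Ly6c2 with Jchain, Tinf2 and Trim25 (0.997, 0.995 and 0.995). Cd28 was nearest to Fndc3b, Morf4l2 and Impdh1 (0.991, 0.989 and 0.989), and Prlr to Mfsd6, B4galt1 and Gfpt1 (0.989, 0.987 and 0.986). Slamf7 was nearest to Zfp280b, Erlin2 and Adgre5 (0.983, 0.978 and 0.974), Cd9 to Gnaz, Trp53inp2 and Inpp5a (0.988, 0.978 and 0.972), and Cd38 to Zbtb5, Pced1b and Mmab (0.971, 0.968 and 0.956). Irf4 and Jchain are plasma cell genes, a regulator and the joining chain of polymeric antibody. Within the set, Sdc1 and Tigit (0.987) and Cd28 and Prlr (0.969) were the closest pairs. Cd38 had a negative r with each of the other 8, from -0.86 with Cd28 to -0.38 with Cd93 and -0.11 with Ly6c2.

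Other surface receptors of plasma cells were read from a list of 19 genes, 18 of them tested. In each isotype's step 11 rose, and 3 fell in IgE and 5 in IgG1 (10 and 5, and 10 and 6, under total-count scaling). Slc3a2 (CD98), the heavy chain of amino acid transporters, was at 1716 ± 107 CPM in IgE PC against 365 ± 69.1 CPM in IgG1 PC (SD, n = 3), a log2 difference of 2.23 ± 0.10 (edgeR adjusted p = 3.61e-10). Tnfrsf17 (BCMA), the receptor for APRIL, rose by 4.15 ± 0.26 in IgE (1.09e-09). Itgb7, an integrin chain of gut homing, fell by 2.58 and 1.32 on the log2 scale (edgeR adjusted p = 2.31e-12 and 7.71e-09).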

How the data were processed

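PolyA RNA of 15 libraries was read from a single end with strand kept, 76 bases long, per the labels' protocols. The submitters' processing notes name cutadapt 1.9.1, STAR 2.5.2a, RSEM 1.3.0, DESeq2 1.12.3 and GRCm38 without roles. The authors deposited, per the file headers, RSEM expected counts and TPM for each library; TPM values are scaled by the authors for length and library total. Symbols were paired for 51633 of 51912 identifiers. The 9 genes and all lists were chosen with earlier results of these data known.

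Expected counts were rounded, filtered with filterByExpr (minimum count 10, minimum total 15) and scaled by TMM (factors 0.764 to 1.15). The edgeR 4.0.16 quasi-likelihood test (R 4.3.3, robust, 1 mean per group, all 15 libraries; common dispersion 0.0109) was adjusted by Benjamini-Hochberg over 15692 genes and called under 0.05. CPM uses TMM-scaled totals; SE is the log2 fold change over the square root of F. Intervals are 1.96 SE (95%) by a normal approximation, so they are narrower than the quasi-likelihood test implies. The p-values set each difference against the spread between these libraries only. Named list genes were at most the 2 largest called rises and falls per list and comparison with a mean of 5 CPM; likeness used 10 CPM and log2 CPM with prior count 2. Alternatives were DESeq2 1.42.0, RLE, total-count scaling, no filter, a replicate block, limma 3.58.1 on log2(TPM + 1), immunoglobulin genes left out, only the groups compared, and each library left out. Same-numbered libraries did not deviate together (mean r -0.0146).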

Additional observations from a re-analysis of the deposited data

Results flagged for a closer look

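For 5 of the 9 genes the size of the step between iGC and PC was not the same in both isotypes by the edgeR test of the difference itself. It was larger in IgE by 2.68 ± 0.21 on the log2 scale for Prlr (adjusted p = 2.40e-07), by 1.81 ± 0.33 for Cd28 (0.000509), by 0.58 ± 0.11 for Slamf7 (0.000513) and by 0.25 ± 0.10 for Cd93 (0.0435). For Ly6c2 it was smaller in IgE (-0.72 ± 0.18, adjusted p = 0.00528). Under the same test 42.9% of all genes differed, so the count of 5 of 9 is a description only. The Cd93 difference lost its call under total-count scaling (0.02, edgeR adjusted p = 0.919). It also lost it in 8 of 15 fits that left out 1 library each.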

How the results depend on the processing

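The 81 gene results were recomputed under 24 alternatives, 1943 values in all: 1889 kept their direction and side of the threshold, 26 lost the call, 7 gained it and 21 changed sign. The difference between steps for Cd38 became 0.0024 with DESeq2, 0.0022 with RLE and 0.0225 with immunoglobulin genes left out. Cd9 in IgG1 PC against D6 became -0.0202 with DESeq2, -0.0212 with RLE, -0.27 with total-count scaling, -0.68 on log2(TPM + 1), which passed (adjusted p = 0.000971), and -0.17 without IgG1 PC replicates 1 and 3. On log2(TPM + 1) Slamf7 in the IgG1 step became -0.0696, Cd28 between iGC groups -0.0684, and Cd28 and Cd38 in IgG1 PC against D6 -0.10 and -0.24. Genes called between iGC groups numbered 607, 937 with DESeq2, 1503 with only the groups compared and 1505 without IgG1 PC replicates 1 and 3 (chosen after the data were seen), and genes whose steps differed 6733, against 4345 on log2(TPM + 1). Called members between iGC groups were 4, and 2 on log2(TPM + 1). The cause of these changes was not tested. Leaving out each library in turn gave 323 to 1219 genes called between iGC groups. It gave -0.11 to 0.14 for Cd9 in IgG1 PC against D6, -0.24 to 0.0397 for Cd38 in IgE PC against D6 and -0.14 to 0.10 for the Cd38 difference between steps. Between iGC groups it gave -0.13 to 0.15 for Cd28 and -0.0397 to 0.60 for Tigit. The Cd93 difference between steps ranged from 0.22 to 0.30 and lost its call in 8 of 15 such fits, and Slamf7 in IgE PC against D6 in 4 of 15. With a replicate block 9950 and 9152 genes were called in the IgE and IgG1 steps, 9005 between PC groups, 580 between iGC groups and 6533 between steps. Cd93 between steps (0.25, edgeR adjusted p = 0.0616) was the only member call the block changed. The labels do not say whether replicate numbers pair libraries, and 3 of 15 libraries correlated best with their own number. Total-count scaling moved the median log2 change of all genes from -0.08 to -0.55 in the IgE step, 0.01 to -0.22 in the IgG1 step and -0.05 to -0.30 between PC groups, and the genes called higher and lower from 4788 and 5270 to 2651 and 8743, 4720 and 4553 to 3226 and 6840, and 4303 and 4816 to 2272 and 7265. The split of genes whose steps differed went from 3101 and 3632 to 1542 and 5603, and that against D6 from 5792 and 6191 to 3311 and 9032 for IgE PC and from 5636 and 5645 to 3964 and 7370 for IgG1 PC. On log2(TPM + 1) the same 6 splits were 1838 and 9583, 1645 and 9247, 2222 and 4780, 1286 and 3059, 2114 and 10420, and 2060 and 9822. Counts limit the iGC values of Tigit (4 to 7 counts) and the D6 values of Ly6c2 (5.64 to 7.35).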
